A study of Mus musculus with 4 samples.

Results

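The cytosolic ribosomal protein genes were followed through single-cell RNA libraries of mouse lungs that carried small cell lung cancer (SCLC). They were chosen by gene symbol: Rpl or Rps with a number, with or without a short suffix, and Rplp0, Rplp1, Rplp2 and Rpsa, with at least 10 CPM (counts scaled to the same fixed total in every sum) in the cells of the 4 libraries pooled. Of 31053 genes in the feature table, 83 matched the symbols and 80 passed the minimum, 32 of the small subunit and 48 of the large subunit. The 3 that stayed below it were Rpl3l at 3.68 CPM, Rpl39l at 0.625 CPM and Rpl10l at 0.0763 CPM. The lowest member, Rpl7l1, stood at 61.2 CPM, well above the minimum.

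Tumour cells had been placed orthotopically in the lung, and whole perfused lungs were digested and sorted for live cells. Control mice received vehicle with isotype IgG. The other groups received an anti-PD-1 antibody (clone 29F.1A12, 200 µg per mouse), YKL-5-124 (10 mg/kg), or both, called the combination here. Anti-PD-1 blocks an inhibitory receptor of T cells, and YKL-5-124 inhibits CDK7, a kinase of the cell cycle and of transcription by RNA polymerase II. Anti-PD-1 was given on Monday, Wednesday and Friday and YKL-5-124 on every weekday. Each group has 1 library. The number of animals behind it, their strain and the origin of the tumour cells were not stated in the labels. Where 4 values follow each other below, they stand for control, for anti-PD-1, for YKL-5-124 and for the combination, in that order.

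A ribosome is built from a small subunit, which reads the mRNA, and a large subunit, which joins the amino acids, and each holds ribosomal RNA and a set of ribosomal proteins that are needed in near equal number. Many ribosomal protein mRNAs start with a C and a run of pyrimidines, the terminal oligopyrimidine (TOP) tract, through which their translation answers to the kinase complex mTORC1. A few members have a paralog that can take their place in the ribosome, and resting lymphocytes are known for devoting a large part of a small mRNA pool to ribosomal proteins.

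The starts of 8 genes named in the results below are shown: 2 paralog pairs whose members differed unequally between T cell-like and tumour cell-like cells, and 4 single genes. The level comparisons below did not use these sequences. Each window runs 5′ to 3′ on the gene's own strand, with 10 bases before the annotated start and 20 from it on, and capitals mark the longest run of a C followed by pyrimidines that began within 5 bases of that start.
Rps27: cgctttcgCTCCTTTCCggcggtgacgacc
Rps27l: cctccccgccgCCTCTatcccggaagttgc
Rpl22: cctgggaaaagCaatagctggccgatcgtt
Rpl22l1: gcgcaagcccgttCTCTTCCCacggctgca
Rps6: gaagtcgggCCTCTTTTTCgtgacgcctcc
Rps9: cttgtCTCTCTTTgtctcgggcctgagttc
Rpl12: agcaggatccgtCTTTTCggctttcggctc
Rpl38: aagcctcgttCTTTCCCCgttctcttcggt

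These come from RefSeq promoters on GRCm38.p6. Rps27 lies at chr3:90213629-90213658 and Rps6 at chr4:86857348-86857377, both on the minus strand. On the plus strand lie Rps27l at chr9:66946076-66946105, Rpl22 at chr4:152325716-152325745, Rpl22l1 at chr3:28805498-28805527, Rps9 at chr7:3704031-3704060, Rpl12 at chr2:32961702-32961731 and Rpl38 at chr11:114668570-114668599. Of the 80 members, 60 had a promoter entry. A run of at least 5 bases was found in 28 of them (46.7%), against 18.5% of 27025 genes with a promoter, and a run of at least 8 bases in 19 (31.7%), against 4.38%. Read from the annotated start base itself, whether or not the run reached further upstream, at least 5 such bases were found in 12 of the 60 members and in 2.49% of all genes. The run was 9 bases long in Rps27 and 5 in its paralog Rps27l, and it was 1 base in Rpl22 and 8 in Rpl22l1. Among members named below but not shown, its length was 0 in Rpl10, 2 in Rplp0 and 3 in Rps28 and Rps19. Other such members had long runs, with 11 bases in Rps18, 14 in Rpl13a and 16 in Rpl35. Such a run is a match of letters in this window and not a mapped transcription start. In GENCODE M21, the members lay on 19 chromosomes, 4 of them on X, and their median transcript lengths ran from 345 to 5130 nt with a median of 772.5 nt.

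A barcode was taken as a cell from 500 unique molecular identifiers (UMIs) and 300 genes upward, with mitochondrial UMIs up to 10%. The libraries held 3481, 2736, 4152 and 4042 cells, with median depths of 1939 to 2239 UMIs. A cell was assigned by a gate: the marker list with the most UMIs, of at least 3 UMIs and 2 markers, and at least 2 times the next list. This gave 3141 T cell-like, 3075 tumour cell-like, 2321 B cell-like, 1678 monocyte- or macrophage-like, 1203 NK cell-like and 1126 neutrophil-like cells, and 1376 of 14411 cells stayed without a gate. No member is a marker. In the T gate the 11 T markers summed to a median of 15 UMIs per cell, and in the tumour gate the 15 neuroendocrine markers to 29, with all markers of each list found.

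The libraries shared cell barcodes. There were 658 barcodes kept as cells in more than 1 library, 469 to 537 for each pair of libraries, where 12.9 would be expected by chance between control and anti-PD-1. Their 1593 shallower copies had a median of 2.44% of the UMIs of the deepest copy, and 1475 of them repeated a barcode that was gated as tumour in its deepest library. Of the 3075 cells in the tumour gate, 941 were such copies, and without them the median depth there rose from 6149 to 9124 UMIs. The counts of called members below came out the same with and without them in the tumour, B, NK and monocyte-macrophage gates against T (79 lower and 1 higher, 55 and 1, 78 and 0, 76 and 2) and in the neutrophil gate (77 and 0).

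The 80 members held 16.4% of all UMIs in cells, 9.34% in the large subunit and 7.02% in the small. These 3′ libraries count a transcript once whatever its length, so levels were not divided by length. Rpl13 was highest at 4857 CPM, and Rpl41 at 4705, Rps19 at 4463, Rps27 at 4358 and Rplp0 at 3852 were among the next. The lowest were Rpl7l1 at 61.2, Rpl22l1 at 523, Rpl12 at 581, Rps12 at 597, Rps21 at 607 and Rpl7a at 667 CPM. Of the 80, 67 stood over 1000 CPM, a level that 141 genes of the whole table reached. A UMI of Rpl7l1 was found in 18.1% of cells. Ribosomal proteins that the symbol rule leaves out included Fau, which makes Rps30 as a fusion protein, at 2362 CPM, Rack1 at 564 and Rpl36al at 411. Reads of members with near-identical copies may have been split with them, and 10 features named as pseudogenes or retrogenes held 303 CPM in all, 168 of it in Rps27rt, a copy of Rps27. Most of the rest lay in copies of Rpl27, Rpl10, Rpl36a, Rpl9 and Rpl13a. UMIs lost to copies were not measured and copies under other names were not counted. The values of these and other members are therefore uncertain to an unknown extent.

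T cell-like cells gave the largest part of their UMIs to ribosomal proteins: 33.3%, 32.7%, 28.6% and 28.8%. B cell-like cells followed with 26.4%, 27.2%, 22.9% and 25.1%. The lowest T library stood above the highest B library in these sums. Without the shallower copies of shared barcodes, T lay above B in every library from 1000 to 2000 and from 2000 to 4000 UMIs. From 4000 UMIs on, T and B were close: 28.2% and 27.6% in control and 29.0% and 28.6% in anti-PD-1. In YKL-5-124 they held 22.9% and 23.5% there. Below 1000 UMIs, T lay under B, with 17.47% and 20.16% in control and 10.95% and 18.72% in YKL-5-124. The remaining libraries had no B value at these depths. NK cell-like cells held 16.0%, 16.4%, 16.4% and 18.9%, and monocyte- or macrophage-like cells 16.5%, 17.1%, 16.1% and 16.5%. These gates overlapped. Tumour cell-like cells came next with 13.4%, 13.0%, 11.2% and 11.9%, below every NK and monocyte-macrophage library. Of these 6 gates, neutrophil-like cells were lowest with 7.29%, 7.75%, 5.97% and 7.18%. That order did not hold in every library under a stricter gate: in YKL-5-124 the 18 neutrophil-like cells left held 12.3% and the 13 tumour cell-like cells left 8.44%.

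**Figure D1:**
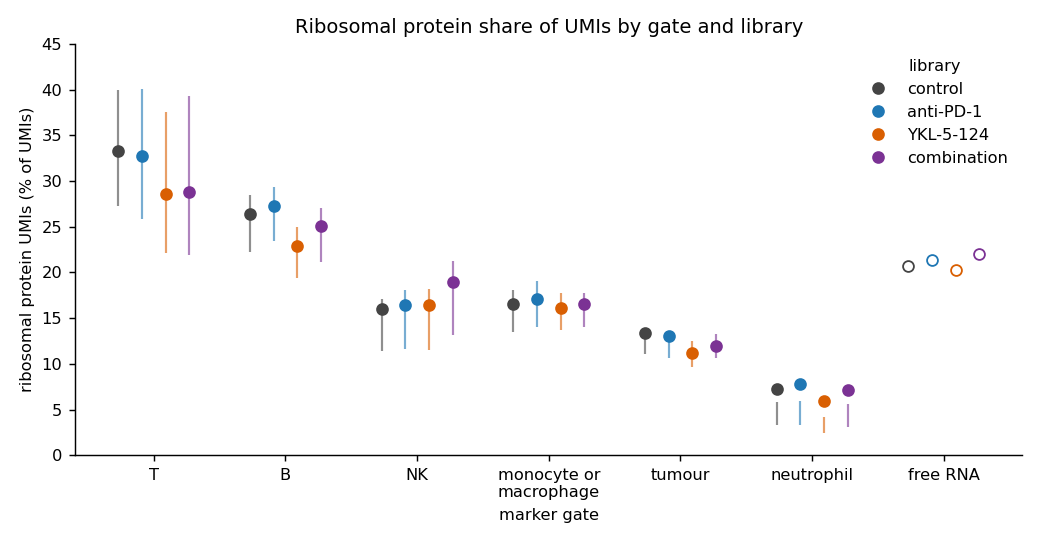
Ribosomal protein UMIs as a percentage of all UMIs (y axis) by marker gate (x axis), with a filled point for the summed cells of each library and a line for the quartiles of single cells; open points are free RNA from barcodes of 10 to 100 UMIs. The T gate lies at 28.6% to 33.3%, the tumour gate at 11.2% to 13.4% and the neutrophil gate at 5.97% to 7.75%.

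Smaller gates filled in the range, with all libraries summed: 15.7% in 73 dendritic-like cells, 10.8% in 59 fibroblast-like cells, 9.57% in 107 plasma cell-like cells and 7.46% in 161 endothelial-like cells. In free RNA, the UMIs of barcodes with 10 to 100 UMIs, the share was 20.7%, 21.3%, 20.3% and 22.0%. That lies below the T and B gates and above the other gates. In the neutrophil gate the median cell (3.01% to 4.40% by library) lay below the summed share, and in the YKL-5-124 library 30.4% of neutrophil-like cells had at least 20 UMIs of the granule genes Camp, Ngp and Ltf and held 4.61%, against 7.09% in the others.

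Within the T gate, cells were split after thinning each to 1000 UMIs, which left out 38, 29, 29 and 47 shallower cells. Cells with at least 2 UMIs of 8 cell-cycle genes, among them Mki67 and Top2a, held 20.2%, 23.3%, 19.8% and 19.7%, at median depths of 6023 to 7412 UMIs. Cells without a UMI of these genes held 34.6%, 33.7%, 31.5% and 31.5%, at median depths of 1992 to 2325 UMIs. The cells with cell-cycle UMIs thus lay lower in each of the 4 libraries, while the split itself was chosen after the data were seen. They numbered 14, 10, 43 and 63. All T cell-like cells from 4000 UMIs on, without the shallower copies of shared barcodes, held 28.2%, 29.0%, 22.9% and 24.0%. The part of depth in the difference was not tested.

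Every comparison between cell types took the T gate as its reference. UMIs were summed per gate and library, and edgeR's quasi-likelihood test, with the library as a term and Benjamini-Hochberg adjustment over all genes, called members at an adjusted p under 0.05. The 4 libraries stand in as replicates there and differ in treatment.

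Against T cell-like cells, nearly every ribosomal protein gene was lower in tumour cell-like cells. Of the 80 members, 79 fell and 1 rose, with a median log2 fold change of −1.99; among 13379 genes tested, 33.9% fell and 46.4% rose, with a median of 0.27. Scaling to total UMIs in place of TMM (edgeR's trimmed-mean scaling) moved the median of all genes to 0.99 and of the members to −1.27, with 77 lower and 2 higher. The 4 lowest were Rpl22l1 (−4.08 ± 0.07, SE, n = 4 libraries, edgeR adjusted p = 1.07e-17), Rps27 (−3.26 ± 0.05), Rps18 (−3.04 ± 0.04) and Rpl12 (−2.85 ± 0.06). The member that rose was Rps27l (1.60 ± 0.09, edgeR adjusted p = 1.61e-11). Next came Rpl7l1 (−0.30 ± 0.10), which turned to 0.42 with total UMIs and missed the threshold with DESeq2 (−0.25), Rpl29 (−0.75 ± 0.06) and Rpl10 (−0.96 ± 0.05). Markers of T cells summed to 55.4 to 89.5 CPM in the tumour gate and tumour markers to 53.5 to 71.6 CPM in the T gate, and their part in these differences was not tested.

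The pair of Rps27, a zinc-binding protein of the small subunit, and Rps27l differed in opposite directions. Rps27 stood at 12416, 12963, 9143 and 9422 CPM in T cell-like cells and at 2082, 2184, 1542 and 1753 CPM in tumour cell-like cells. Rps27l stood at 232, 203, 270 and 308 CPM in T cell-like cells and at 1245, 1250, 1215 and 1316 CPM in tumour cell-like cells. The T and tumour libraries did not overlap for either gene. Rps27l was also higher in monocyte- or macrophage-like cells, at 438, 478, 484 and 536 CPM (log2 fold change 1.10 ± 0.09, edgeR adjusted p = 2.06e-07), and in free RNA it was listed at 571 to 613 CPM. Its levels in B, NK and neutrophil-like cells missed the threshold against T, with log2 fold changes of −0.19 ± 0.09, 0.19 ± 0.09 and 0.33 ± 0.21.

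The pair of Rpl22, which binds RNA in the large subunit and is known for its part in the development of alpha-beta T cells, and Rpl22l1 fell in tumour cell-like cells by unequal amounts, with the paralog falling further. Rpl22l1 stood at 1564, 1601, 1496 and 1388 CPM in T cell-like cells and at 143, 144, 148 and 154 CPM in tumour cell-like cells. Rpl22 was at 1098, 1098, 952 and 1048 CPM in the T gate and at 918, 906, 746 and 811 CPM in the tumour gate. Rpl22l1 thus exceeded Rpl22 in each T library, whereas Rpl22 exceeded Rpl22l1 in each tumour library. In free RNA, Rpl22l1 was at 628, 664, 757 and 852 CPM, above its level in the tumour gate in every library. The log2 fold change of Rpl22 against T was −1.04 ± 0.06 in tumour cell-like cells. In B cell-like cells, Rpl22l1 stood at 1058 to 1118 CPM and in NK cell-like cells at 865 to 1125 CPM, below the T gate in every library.

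**Figure D2:**
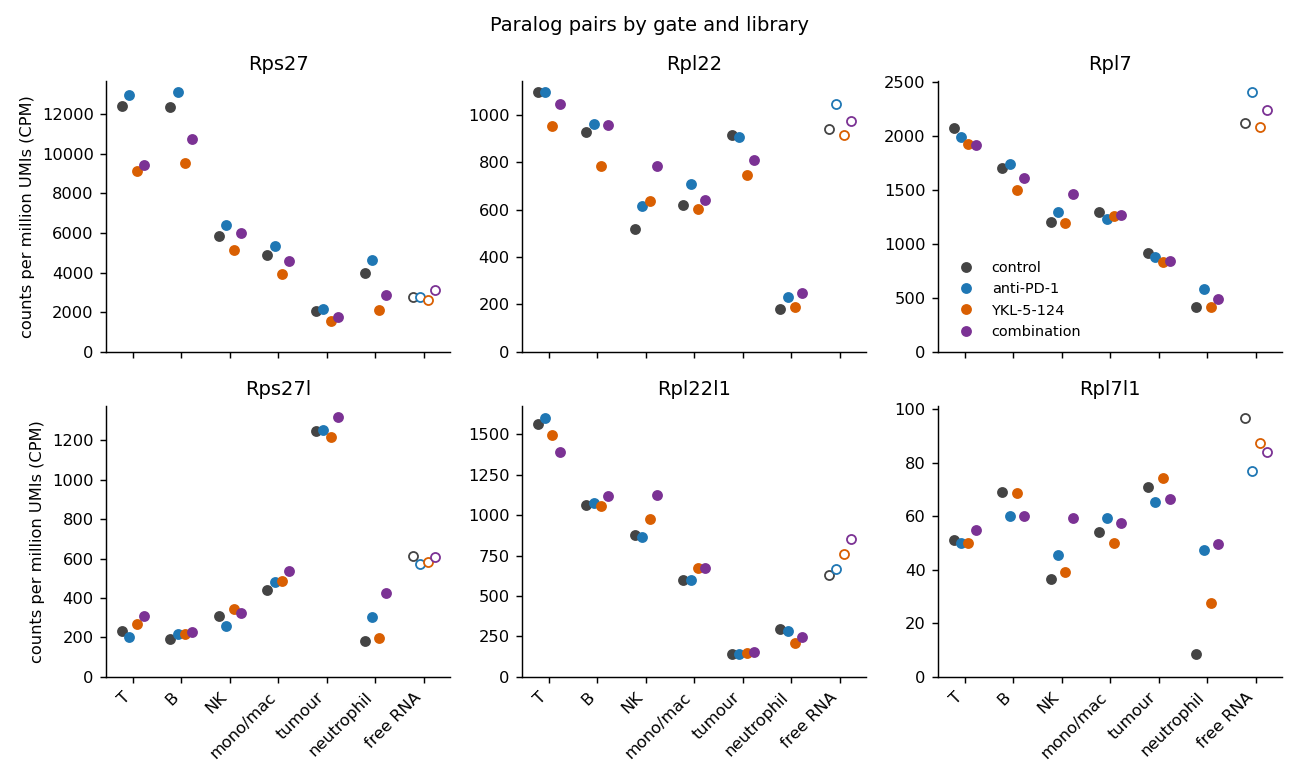
Levels in CPM (y axes, each from 0) of 3 paralog pairs by gate and library, with open points for free RNA (10 to 100 UMIs per barcode). Rps27l reaches 1215 to 1316 CPM in the tumour gate and 203 to 308 CPM in the T gate, whereas Rpl22l1 is lower in the tumour gate, 143 to 154 against 1388 to 1601 CPM.

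The third pair, Rpl7 and Rpl7l1, differed mainly in level. Rpl7, a large subunit protein, was at 1916 to 2080 CPM in the T gate and 828 to 920 CPM in the tumour gate. Rpl7l1 was at 50.05 to 55.0 CPM and 65.4 to 74.3 CPM in the same gates. The tumour libraries lay below the T libraries for Rpl7 and above them for Rpl7l1 on this CPM scale, whereas TMM scaling gave Rpl7l1 the negative value printed above. Partners of the other pairs on the list, Rpl39l, Rpl3l and Rpl10l, were under the minimum.

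In B cell-like cells the differences were the smallest of the gates compared, by their median. Of the 80 members, 55 fell and 1 rose, with a median of −0.24; of 8453 genes tested, 22.1% fell and 18.5% rose. With DESeq2, 37 fell and 0 rose (0 at an unadjusted p under 0.05). With total UMIs 70 fell and 1 rose. A stricter gate gave 76 lower and 0 higher, with a median of −0.47, so the size of the difference depended on the gate. The lowest were Rplp0 (−0.75 ± 0.06, edgeR adjusted p = 9.18e-08) and Rplp1 (−0.58 ± 0.06), stalk proteins that recruit elongation factors, Rps6 (−0.48 ± 0.06), the target of S6 kinase, and Rpsa (−0.47 ± 0.06), at the head of the small subunit. The one that rose was Rpl7l1 (0.37 ± 0.12). The smallest called decreases were Rpl35a (−0.16 ± 0.06), Rps13 (−0.18 ± 0.06) and Rpl27 (−0.18 ± 0.06). Rplp0 stood at 7810, 7165, 7246 and 7118 CPM in the T gate and 4304, 4598, 3788 and 4244 CPM in the B gate, without overlap.

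In NK cell-like cells 78 members fell and 0 rose, with a median of −0.94; 18.1% of 8029 genes fell and 17.3% rose. No member rose at an unadjusted p under 0.05 in edgeR either, and DESeq2 called 0 higher and 77 lower. With total UMIs, without the 2% deepest cells and without the combination library, 1 member was called higher, Rps27l. The lowest were Rps19 (−1.70 ± 0.11, edgeR adjusted p = 6.44e-14), a gene mutated in Diamond-Blackfan anaemia, Rpl12 (−1.51 ± 0.12), Rps20 (−1.38 ± 0.11) and Rplp0 (−1.34 ± 0.10). The smallest called decreases were Rpl10 (−0.26 ± 0.10), Rpl27 (−0.60 ± 0.10), Rpl34 (−0.60 ± 0.10) and Rpl38 (−0.61 ± 0.10). The 2 members not called were Rps27l and Rpl7l1. Rps19 stood at 10874, 10392, 10031 and 9407 CPM in the T gate and at 2944, 3100, 3426 and 3994 CPM in the NK gate, without overlap. T markers were found in 43.7% of NK-gated cells, and their part was not tested.

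Monocyte- or macrophage-like cells had 76 members lower and 2 higher, with a median of −0.77; 31.3% of 9528 genes fell and 30.4% rose. The lowest were Rpl12 (−1.68 ± 0.08, edgeR adjusted p = 6.13e-10), which sits at the base of the stalk, Rpl13a (−1.24 ± 0.08), Rps15a (−1.16 ± 0.09) and Rpl36a (−1.16 ± 0.09). Besides Rps27l, Rpl10 rose (0.27 ± 0.08, edgeR adjusted p = 0.00924), a protein that joins the large subunit late in its maturation. It missed the threshold with total UMIs (0.10) and without the YKL-5-124 library (0.23), and a stricter gate gave −0.17. Called decreases were smallest for Rps27a (−0.20 ± 0.08), which is made fused to ubiquitin, and Rps25 (−0.25 ± 0.08). Rpl10 stood at 2947, 2815, 2729 and 2769 CPM in the T gate and 2894, 3166, 3133 and 2912 CPM here, so the libraries overlapped.

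In neutrophil-like cells 77 members fell and 0 rose, with a median of −1.92; 24.3% of 9477 genes fell and 23.4% rose. No member rose at an unadjusted p under 0.05 in edgeR, and DESeq2 called 0 higher and 77 lower. The lowest were Rpl12 (−2.88 ± 0.21, edgeR adjusted p = 1.63e-41), Rps18 (−2.66 ± 0.17), Rpl36a (−2.66 ± 0.20) and Rpl3 (−2.65 ± 0.18), a protein of the peptidyl transferase centre. The neutrophil sums held 101, 103, 724 and 198 cells, and their TMM factors were 0.997, 0.991, 0.737 and 0.992. Spread and the degrees of freedom of the test were estimated apart for each gate, so edgeR p-values do not compare in size between gates. Rpl22l1 in the tumour gate had a larger change and a smaller SE, yet a larger p. The neutrophil p-values lie near those that a normal distribution gives for the same changes and SEs, as if the spread were known. Their small size is not stronger evidence than in the other gates. The smallest called decreases were Rps27a (−0.87 ± 0.17), Rps25 (−1.10 ± 0.18), Rpl37 (−1.16 ± 0.17) and Rpl41 (−1.40 ± 0.16). Rps9, a core protein of the small subunit body, did not pass (−0.30 ± 0.16) and stood at 3635, 3415, 2524 and 2885 CPM. Rps27l and Rpl7l1 did not pass either.

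The 5S particle of Rpl5 and Rpl11, which also binds the p53 regulator Mdm2, went with the rest. Rpl5 had log2 fold changes of −1.40, −0.47, −0.99, −0.96 and −2.09 in tumour, B, NK, monocyte-macrophage and neutrophil gates. Rpl11 had −1.31, −0.23, −0.91, −0.71 and −1.86 in the same order. All 10 values passed the test.

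A second fit set the library size to the ribosomal protein UMIs of each sum, so that only the make-up of that pool was compared. The parts of the pool add up to a fixed total, so larger parts of some members come with smaller parts of others. Members that took a larger part of the pool than in T cell-like cells numbered 39 in the tumour, 14 in the B, 13 in the NK, 19 in the monocyte-macrophage and 9 in the neutrophil gate. In this fit all genes are set against a pool that itself differs, so 85.2%, 31.1%, 72.7%, 57.3% and 71.2% of genes were called higher in those gates. Members with a smaller part numbered 33, 20, 12, 23 and 20, where 10.1%, 14.3%, 4.55%, 11.1% and 3.04% of genes were lower. With so many genes called, the adjustment changed little in the tumour gate, where an unadjusted p under 0.05 also gave 39 and 33 members. The counts of members with a smaller part fell in the last 4 of these gates whichever library was left out. With control, anti-PD-1, YKL-5-124 or the combination left out, they were 31, 31, 32 and 33 in the tumour gate. In the same order they were 11, 13, 15 and 15 in B and 8, 6, 9 and 11 in NK. They were 21, 13, 11 and 17 in monocyte-macrophage and 13, 12, 13 and 18 in neutrophil-like cells. The part of the smaller number of libraries in these falls was not tested.

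**Figure D3:**
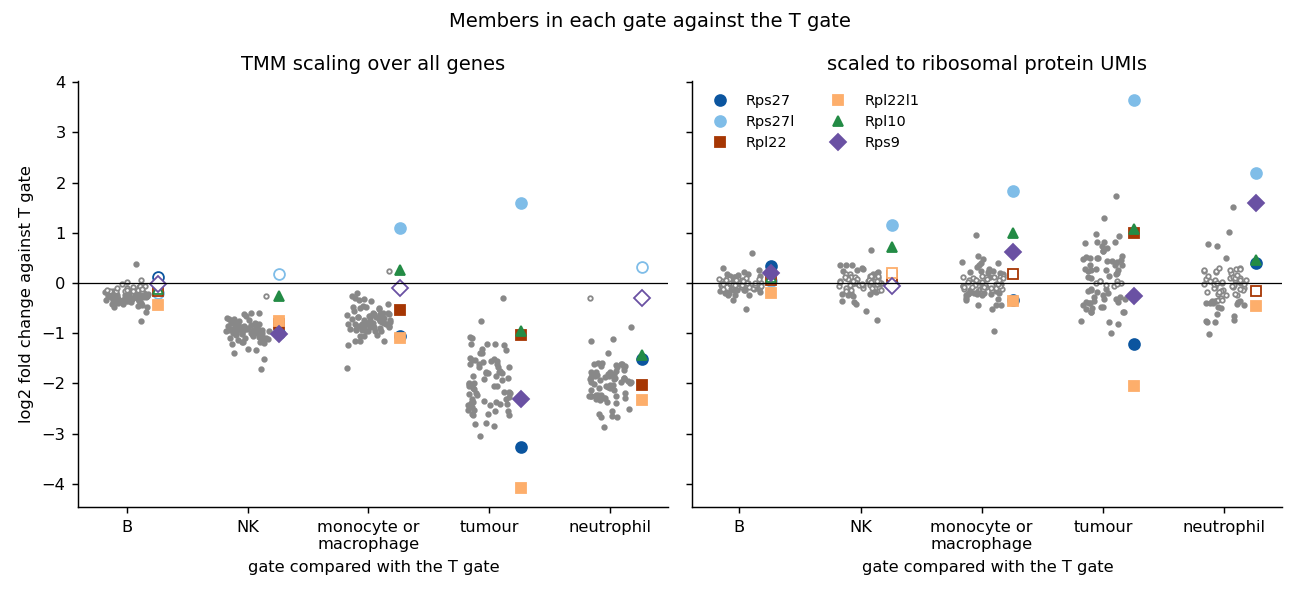
Log2 fold change of the 80 members against the T gate (y axis) in 5 gates (x axis), with TMM scaling over all genes on the left and scaling to ribosomal protein UMIs on the right; filled symbols passed an adjusted p of 0.05, and grey points are the members not named. On the left the medians run from −0.24 (B) to −1.99 (tumour), and on the right Rps27l is the highest in the NK, monocyte-macrophage, tumour and neutrophil gates.

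Rpl12 took a smaller part of the pool: its log2 fold changes in tumour, NK, monocyte-macrophage and neutrophil-like cells were −0.81, −0.55, −0.96 and −1.01, and it passed the test in each. Per 1000 ribosomal protein UMIs, Rpl12 held 4.75 to 5.09 in the T gate and 2.76 to 2.83 in the tumour gate. Rpl10 took a larger part, at 1.08, 0.71, 1.00 and 0.46. In B cell-like cells Rpl12 was at −0.19, which passed, and Rpl10 at 0.11, which did not (edgeR adjusted p = 0.0846). Rpl10 held 8.61 to 9.62 per 1000 in the T gate and 18.7 to 19.8 in the tumour gate. The T and tumour libraries overlapped for neither gene. These comparisons share the T gate sums.

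Rps9 was prominent in the neutrophil pool, with 49.9, 44.0, 42.3 and 40.2 per 1000 ribosomal protein UMIs, against 14.3 to 14.6 in the T gate (log2 fold change 1.60 ± 0.16, edgeR adjusted p = 1.68e-22). In the monocyte-macrophage gate it held 20.6 to 24.7 per 1000 (0.63 ± 0.06), and in the tumour gate 11.6 to 12.7 (−0.27 ± 0.04). Rps27 held 35.2 to 59.5 per 1000 in the neutrophil gate, 31.9 to 39.6 in the T gate, 41.5 to 48.1 in the B gate and 13.8 to 16.8 in the tumour gate. Rpl29 (1.29), Rpl7l1 (1.74) and Rpl22 (1.00) had the largest increases in the tumour pool after Rps27l (3.64) and beside Rpl10. In free RNA Rps9 was at 3926 to 4254 CPM, above its level in the neutrophil gate in every library.

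Other genes of protein synthesis were counted on the TMM scale, against the shares of all genes given above. Fau fell in tumour cell-like cells (−1.99) and rose in B cell-like cells (0.25). Of 38 translation factors, 26 fell and 3 rose in tumour cell-like cells, with a median of −0.80, and 31 fell and 2 rose in neutrophil-like cells, with a median of −1.05. In the tumour gate the lowest were the elongation factor subunits Eef1d (−2.47) and Eef1g (−2.24) and the initiation factor subunit Eif3e (−2.16), and Eif1ax (0.96) was the highest. The counts were 14 lower and 2 higher in B, 18 and 1 in NK and 15 and 3 in monocyte- or macrophage-like cells.

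Of 37 ribosome biogenesis factors, 22 fell and 2 rose in the tumour gate, 24 and 3 in the monocyte-macrophage gate, 29 and 0 in the neutrophil gate, 16 and 0 of 35 tested in the NK gate, and 1 and 2 in the B gate. Ddx21, a nucleolar helicase, fell by 1.79 in tumour and by 2.62 in neutrophil-like cells on the log2 scale. Mitochondrial ribosomal proteins, which build the separate ribosome of that organelle, did not follow the cytosolic members in the tumour gate: 38 of 78 rose and 19 fell, with a median of 0.20, and Mrpl27 rose most (1.59). Of all genes tested there, 46.4% rose and 33.9% fell, with a median of 0.27, so the rises in this list lay near those of all genes. In the neutrophil gate 35 of 77 fell and 3 rose. Of the MYC family, Myc fell (−3.02) and Mycl (5.23) and Mycn (3.92) rose in tumour cell-like cells. The mTORC1 and TOP mRNA control list had 6 of 16 genes higher and 5 lower there, with Deptor, an inhibitor of mTOR, highest (2.36).

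Each treated library was set against the control library within a gate. With 1 library per group there is no test, and a 95% interval covers counting error only. Log2 ratios used a pseudocount of 10 CPM, and a gene counted as past the size rule at 1.5-fold. All treated values share the control library.

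Values for the 3 treated libraries come in the order anti-PD-1, then YKL-5-124, then the combination. No member of the tumour gate passed 1.5-fold in any treated library, where 0.46%, 0.371% and 1.45% of genes did. The members' median log2 ratios were −0.04, −0.24 and −0.16, against 0.01, 0.04 and 0.02 over all genes, and 65, 77 and 78 of the 80 lay below 0. In the YKL-5-124 library the lowest were Rpl38 (976.5 against 1422 CPM in control, ratio 0.687, interval 0.669 to 0.706), Rps28 (977 against 1421 CPM, 0.688) and Rps29 (1477 against 2122 CPM, 0.696), which are among the 5 shortest members, and Rps12 (312 against 434 CPM, 0.720). The highest were Rpl3 (1863 against 1785 CPM, 1.04), Rpl7l1 (1.05), Rpl22l1 (1.04) and Rps27l (0.976). In the combination the lowest were Rpl35a (0.821), Rpl35 (0.822), Rpl37 (0.825) and Rpl26 (0.827) and the highest Rpl22l1 (1.08), Rps27l (1.06), Rpl3 (0.999) and Rps3a1 (0.979). In anti-PD-1 Rpl4 (0.922), Rpl7l1 (0.922) and Rpl26 (0.926) were among the lowest, and the highest were Rpl35 (1.12), Rpl13a (1.11), Rpl27 (1.06) and Rps21 (1.06). Neutrophil markers summed to 22.5 to 164 CPM over the libraries of the tumour gate, and their part was not tested.

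**Figure D4:**
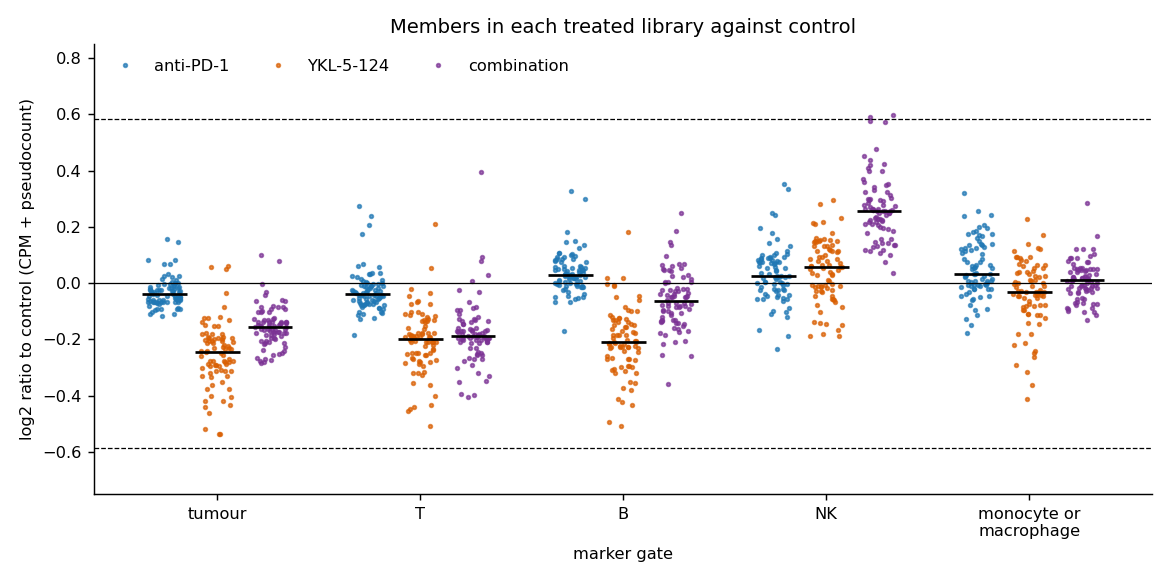
Log2 ratio of each treated library to control (y axis, CPM plus a pseudocount of 10) for the 80 members in 5 gates (x axis), with a bar at the median and dashed lines at 1.5-fold. Medians lie below 0 in the tumour and T gates for all 3 libraries, lowest at −0.24 in the YKL-5-124 tumour gate, and at 0.26 in the combination NK gate, where 2 members pass 1.5-fold.

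In the T gate, 0 of 80 members passed 1.5-fold in each treated library, where 3.28%, 6.13% and 7.91% of genes did. Medians were −0.04, −0.20 and −0.19, against 0.02, 0.08 and 0.06 over all genes, and 62, 78 and 75 of the 80 lay below 0. In YKL-5-124 the lowest were Rps28 (3285 against 4670 CPM, ratio 0.704), Rps21 (980 against 1347 CPM, 0.727), Rps29 (0.734) and Rps27 (0.736), and the highest Rps27l (270 against 232 CPM, 1.16, interval 1.02 to 1.32), Rps2 (1.04), Rpl7l1 (0.983) and Rpsa (0.975). In the combination the lowest were Rps24 (0.754), Rps27 (0.759), Rps28 (0.760) and Rps29 (0.783), and Rps27l was again the highest (308 against 232 CPM, 1.33, interval 1.19 to 1.49), followed by Rpl7l1 (1.08), Rps2 (1.06) and Rpsa (1.02). In anti-PD-1 Rps27l was the lowest (0.876, interval 0.754 to 1.02), with Rps4x (0.916), Rplp0 (0.917) and Rpl14 (0.925), and Rpl13a (1.21), Rpl35 (1.18), Rpl27 (1.16) and Rpl38 (1.13) the highest.

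The make-up of the T gate moved along with these values. Cells with at least 2 cell-cycle UMIs after thinning made up 1.73%, 1.83%, 6.41% and 6.46% of T cell-like cells, and 2.84%, 4.18%, 9.29% and 10.5% before thinning. The part of this and of other changes in the make-up of the gate in the ribosomal protein values was not tested.

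In B cell-like cells 0 of 80 members passed in each treated library, where 6.12%, 4.52% and 6.4% of genes did, and medians were 0.03 in anti-PD-1, −0.21 in YKL-5-124 and −0.06 in the combination. In monocyte- or macrophage-like cells 0 members passed against 9.24%, 8.05% and 7.06% of genes, with medians of 0.03, −0.03 and 0.01. In NK cell-like cells 0 passed in anti-PD-1 and YKL-5-124 (13.4% and 13.3% of genes) and 2 in the combination (11.4% of genes), with medians of 0.02, 0.06 and 0.26. The 2 were Rpl12 (730 against 479 CPM, 1.52, interval 1.31 to 1.77) and Rpl22 (784 against 518 CPM, 1.51, interval 1.31 to 1.75). All 80 members lay above 0 in the combination NK gate. Its 369 cells compare with 301 in control, at median depths of 1676 and 1606 UMIs, and T markers summed to 374 to 444 CPM over the NK libraries.

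Side by side over the gates, Rps28 stood at ratios of 0.688, 0.704, 0.740, 0.878 and 0.863 to control in tumour, T, B, NK and monocyte-macrophage gates of the YKL-5-124 library, and at 0.978 in its free RNA. Rps29, which binds zinc in the small subunit, stood at 0.696, 0.734, 0.752, 0.908 and 0.832, and at 0.999 in free RNA. Rpl38 stood at 0.687, 0.782, 0.784, 0.882 and 0.817, and at 0.963 in free RNA. The values in the free RNA of that library were nearer to 1 than those in its gates for these 3 genes. The genes were picked after their low ratios in these gates were seen, so values nearer to 1 elsewhere can come from that choice. The contrast was not tested.

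In the anti-PD-1 library, Rpl35 stood at 1.12, 1.18, 1.23, 1.28 and 1.25 in the same order of gates and at 1.05 in free RNA. Rpl13a stood at 1.11, 1.21, 1.26, 1.26 and 1.19 and at 1.12 in free RNA. Both were chosen for this look after their values were seen. A difference that runs through all gates of a library cannot be told apart from a property of that library.

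Transcript length went with the ratios in the tumour gate of the YKL-5-124 library. Across the 80 members, Spearman's rho between length and log2 ratio was 0.49 and Pearson's r was 0.42, given as a description, since the genes share 2 libraries. The 11 members under 500 nt had a median of −0.42 and the 18 of at least 1000 nt a median of −0.22. Other genes of at least 100 CPM showed the same order, with medians of −0.13 for 78 genes under 600 nt and 0.05 for 1753 longer ones. In the combination the rho was 0.18 and in anti-PD-1 −0.19. In the T gate of YKL-5-124 the members gave 0.33 and the other genes −0.06, and in its B gate 0.18 and 0.01. Its NK gate gave 0.31 and −0.04, and its monocyte-macrophage gate 0.16 and −0.11. For the members under anti-PD-1, rho was −0.21 in T, −0.24 in B, −0.20 in NK and −0.405 in monocyte-macrophage. Under the combination it was 0.11, −0.07, 0.28 and −0.02 in those gates. A relation with length was thus not limited to 1 gate or 1 library, and its sign differed between libraries.

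**Figure D5:**
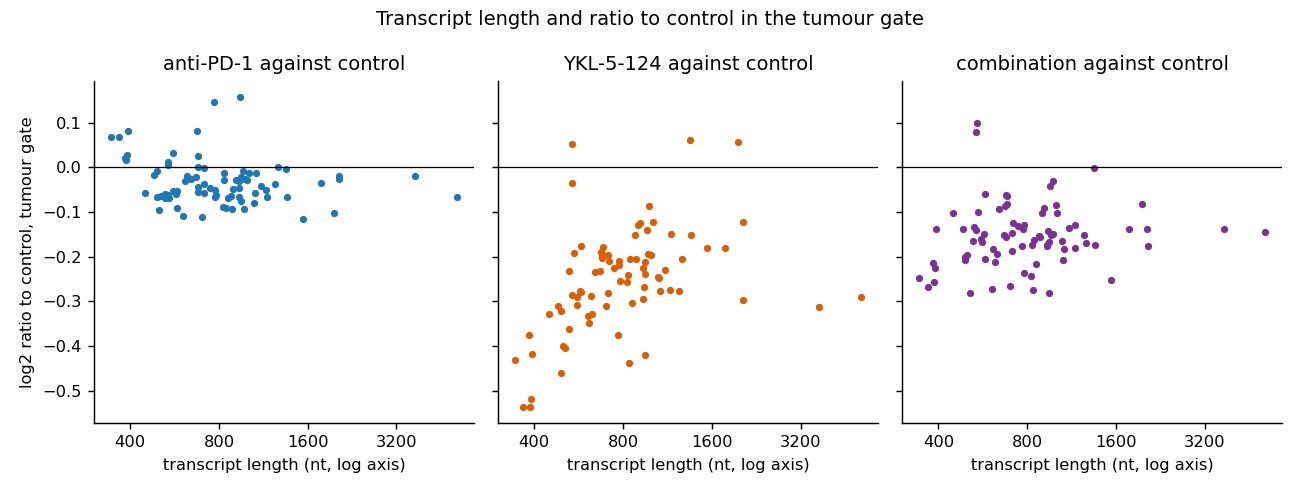
Log2 ratio to control in the tumour gate (y axis) of the 80 members against their median transcript length in nt (log x axis) for each treated library. In the YKL-5-124 panel the 11 members under 500 nt have a median of −0.42, and in the anti-PD-1 panel 0.02.

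Of 3 other lists in the tumour gate, values were as follows. Of 38 translation factors, 1, 0 and 1 were past 1.5-fold upward and 0 downward, with medians of −0.05, 0.01 and −0.04. Of 36 measured biogenesis factors and 77 mitochondrial ribosomal proteins none passed in any of the 3 libraries. The cytosolic members' median of −0.24 in YKL-5-124 was lower than the medians of these 3 lists in that library, which were 0.01, −0.0022 and −0.04.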

How the data were processed

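The members and gene lists were chosen with earlier results of these data known. Each deposited matrix gives the UMI count of every gene in every barcode, without normalization. Reads were handled with bcl2fastq and with Cell Ranger, per the submitters' processing notes; a software version of 3.0.0 stands in the file headers. Those notes list hg19, but the gene IDs are mouse Ensembl IDs, which leaves the genome build of the counts not given in the sources used here. Ccr7 was dropped from the dendritic markers after the data were seen. Doublets were not called. Barcodes whose top marker list fell short of the gate's ratio to the next list were left without a gate. Gated cells could still hold markers of other lists. Monocyte-macrophage markers were found in 89.4% of neutrophil-gated cells, T markers in 43.7% of NK-gated cells and B markers in 43.2% of T-gated cells. Only the stricter gate left out cells with any marker UMI of another list.

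UMIs were summed per gate and library. Gates were compared with edgeR 4.0.16 (quasi-likelihood, TMM, filterByExpr, library as a term, Benjamini-Hochberg over all genes) in R 4.3.3, with DESeq2 1.42.0 as an alternative; the library term pairs the gates. The fit was tested on simulated counts. The fit scaled to ribosomal protein UMIs, the sub-gates and the analyses without shared barcodes were added after the data were seen. Treated libraries were compared by CPM ratio with exact conditional binomial 95% intervals, over genes of at least 10 CPM in the mean of both libraries. The total count per library was 17329001 to 22950622 UMIs, and intervals cover counting error only. Named members were the 6 highest and 6 lowest levels, the 4 highest and 4 lowest called fold changes per gate, the 4 highest and lowest ratios in tumour and T gates, those past 1.5-fold elsewhere, the paralog pairs, the stalk, Rpl5 and Rpl11, Rpsa and Rps6, and up to 3 called genes per list and direction. Some items that this rule names are not reported here. Rps9, Rpl10 and Rpl12 within the pool and Rps28, Rps29, Rpl38, Rpl35 and Rpl13a across gates were picked after their values were seen. Sums, gates and ratios were computed in Python 3.11.15 with pandas 2.3.3, SciPy 1.17.1 and NumPy 2.4.6, and plots with Matplotlib 3.10.9.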

Additional observations from a re-analysis of the deposited data

How the results depend on the processing

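Counts of members called against T stayed within 1.5 times of the main count in 54 of 55 alternatives; the exception was B cell-like cells with DESeq2, with 37 called in place of 56. With each library left out in turn, 41 to 60 members were called in B, and within the ribosomal protein pool 22 to 26 in B, 27 to 39 in monocyte-macrophage and 19 to 27 in neutrophil-like cells; the lowest came without control, YKL-5-124 and anti-PD-1. A stricter gate (at least 6 marker UMIs and none of another list) kept 1424 of 13035 cells, and the shares of ribosomal protein UMIs were then 34.0% in T, 14.7% in NK, 15.5% in monocyte-macrophage, 11.2% in tumour and 8.59% in neutrophil-like cells. The treated minus control difference in that share, in percentage points, moved as follows. In the stricter gate, anti-PD-1 gave −0.30 in tumour, −0.25 in T, −0.25 in B (0.80 in the main analysis, so the sign turned), 0.68 in NK and 1.496 in monocyte-macrophage. YKL-5-124 gave −3.53, −5.34, −2.76, 1.12 and −0.72 in the same gates. The combination gave −1.02 in tumour, −1.43 in T, 2.59 in NK and 0.26 in monocyte-macrophage. With the median over cells, anti-PD-1 gave −0.41 in tumour, −0.37 in T, 1.00 in B and 0.53 in NK. YKL-5-124 gave −1.25, −3.46, −3.26 and 0.14 in those gates and 0.0731 in monocyte-macrophage, where the sign turned from −0.36. The combination gave −0.48, −3.97, −1.06, 2.69 and 0.20. Without shared barcodes, an alternative chosen after seeing the data, as were those scaled to ribosomal protein UMIs, the tumour differences were −2.22 for YKL-5-124 and −1.51 for the combination. With ribosomal protein and mitochondrial UMIs left out of the CPM total, 1 member passed 1.5-fold in T cell-like cells of YKL-5-124 and 4 in NK cell-like cells of the combination. Of 646 values of named members under alternatives, 595 kept their side of the threshold and 4 turned sign: Rpl7l1 in tumour with total UMIs (0.42), and with the stricter gate Rps27 in B (−0.0612), Rps27l in B (0.0538) and Rpl10 in monocyte-macrophage (−0.17). The cause of these shifts was not tested. The library was already a term in every fit between gates, which pairs the gates. Treated and control libraries could not be paired, because each treatment group has 1 library. With 1 library per group, treated and control differ by treatment and by library at once, which cannot be told apart.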
